A study of Danio rerio with 23 samples.

Results

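The cell cycle and replication genes described here are 37 zebrafish genes chosen by name from the machinery of cell division, by a rule that uses no value of these libraries although earlier results of the data were known. They matched 40 of the 31902 features in the count files, since *mcm6*, *rrm2* and *ccnd2a* each carry 2 Ensembl identifiers and the other 34 genes carry 1. By role they are 13 genes of DNA replication and nucleotide supply (15 identifiers), 5 genes that drive entry into S phase (6 identifiers), 17 genes of mitosis and 2 CDK inhibitors. The question was whether Ascl1a, Neurod1 or Neurod1 with a deletion changes the level of division genes in endodermal cells, and how low these genes lie in enteroendocrine cells (EECs), the hormone-secreting cells of the gut.

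The data are 23 bulk RNA-seq libraries of cells isolated by FACS. In the gain-of-function (GOF) experiment, dsred+ cells were sorted at 52 hpf from the trunks of about 150 Tg(*sox17*:*dsred*) embryos per preparation, and all 16 libraries, controls included, come from embryos heat-shocked at 38 and 48 hpf. Controls (n = 3) carried no *hsp70l* transgene and so no eGFP, while the 4 transgenic groups carried *hsp70l*:*eGFP-2A* followed by a factor: full-length Neurod1 (n = 4), Neurod1 lacking the UCE (Neurod1 ΔUCE, n = 3), Neurod1 lacking the ECD (Neurod1 ΔECD, n = 3) or Ascl1a (n = 3). ECD is a conserved stretch in the C-terminal region of Neurod1 that Ascl and Atoh factors lack, and UCE is the most conserved element inside it. No group expressed eGFP alone, so the factor cannot be told apart from the transgene and eGFP in any comparison with the controls. In the EEC experiment, GFP+ cells were sorted at 4 dpf from the dissected guts of about 200 Tg(*pax6b*:*GFP*) larvae per preparation, wild type (n = 3) or homozygous for a CRISPR/Cas9 deletion of the UCE in the endogenous *neurod1* gene (n = 4, 1 mutant line), without heat shock.

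A dividing cell builds D and E cyclins and switches on CDK2 to enter S phase. It loads the MCM helicase with the help of Cdc6, and opens origins with Cdc45 and Mcm10. PCNA then holds the polymerases on DNA, while ribonucleotide reductase (Rrm1, Rrm2) and thymidylate synthase (Tyms) supply the nucleotides. A and B cyclins with CDK1, the Aurora and Polo kinases, kinesins and the spindle checkpoint carry the cell through mitosis, and Cdc20 with the anaphase-promoting complex ends it. Mitotic transcripts accumulate mainly in G2 and M phase, whereas MCM and PCNA transcripts are made from late G1 on, so both sets report cycling cells but not the same phase. CDK inhibitors of the p21 and p57 type (*cdkn1a*, *cdkn1ca*) hold cells out of the cycle. In the developing gut, progenitors divide, and EECs are known as cells that have largely left the cycle.

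Total counts per library ranged from 8364374 to 22301304, so that 3 counts correspond to 0.135 to 0.359 CPM, counts scaled to a common library total. The transgenes check only some of the labels. The *ascl1a* reading frame reached 27.99 to 263 CPM where Ascl1a was induced and no more than 2.71 CPM in the 13 others, and the added *neurod1* transgene feature was at 19.0 to 53.9 CPM in the Neurod1 libraries against 0.118 to 1.09 CPM in controls. That feature also reached 21.8 to 177 CPM where Ascl1a was induced, 3.95 to 7.33 CPM with Neurod1 ΔECD and, with Neurod1 ΔUCE, at 1191 CPM in replicate 1 but at 1.52 and 1.69 CPM in the others. It therefore lay above every control in all transgenic libraries, by little in some with a deleted form. The feature does not separate full-length Neurod1 from Ascl1a, nor the 2 deleted forms from each other. Endogenous *neurod1* was at 21.6 to 69.2 CPM with Neurod1 against 1.22 to 7.63 CPM with Ascl1a. In the EEC libraries the gene count of *neurod1* cannot show a deletion of this size and checks nothing. Summed enteroendocrine markers, all 17 detected in both EEC groups, reached 16733 to 53214 CPM in EEC libraries against 42.5 to 216 CPM in the controls, while *sox17*, which drives dsred, was near 0 in the endodermal libraries although the other endoderm markers were present. Neurod1 ΔUCE replicate 1 stood apart from the rest of its group, with 3919 CPM of mesenchyme markers against 82.6 and 439 CPM. Most Neurod1 ΔUCE member counts, the levels and the leading genes against controls are also given without it. In bulk RNA, fewer dividing cells and less RNA per cell cannot be told apart. Nothing beyond separate preparations is known of the replicates, so p-values measure only the spread between these samples.

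Levels are TMM-normalised CPM over the libraries of the fit in question, so a library's value differs slightly between the GOF comparisons and those with EECs. A gene was called at a Benjamini-Hochberg FDR of at most 0.1 in edgeR's quasi-likelihood test over all genes tested, and fold changes are on the log2 scale. Levels are compared between libraries and never between genes.

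In endodermal cells, no cell cycle gene was lower with any of the 4 factors at the FDR threshold, and the mitotic genes had higher mean levels than controls in nearly every case. Of the 17 mitotic genes, 17 had a positive log2 fold change with Neurod1, 17 with Ascl1a, 16 with Neurod1 ΔUCE and 16 with Neurod1 ΔECD, and their medians were 0.66, 0.59, 0.57 and 0.73. The medians over all 18911 genes tested were 0.00, -0.02, 0.02 and -0.03. Not one of these differences passed the threshold on its own, and all 4 comparisons share the same 3 control libraries, so they are not independent of one another.

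The averages per library show where this lies. The mitosis level, the mean of log2(CPM + 1) over the 17 genes, was 5.46, 5.86 and 5.77 in the controls. It was 6.55, 6.17, 6.13 and 6.42 with Neurod1, 6.31, 6.26 and 6.30 with Ascl1a, and 6.26, 6.30 and 6.56 with Neurod1 ΔECD. Every library of these 3 groups lay above every control. With Neurod1 ΔUCE the values were 5.67, 6.10 and 6.60, and replicate 1, the library rich in mesenchyme markers, lay within the control range. That library also held 1191 CPM of the *neurod1* transgene feature, against 1.52 and 1.69 CPM in the others of its group, and the part of either was not tested. The differences of the group means from controls were 0.62, 0.59, 0.68 and, with Neurod1 ΔUCE, 0.43, or 0.66 without its replicate 1.

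The replication level did not separate the groups in this way. It was 6.91, 6.71 and 6.70 in controls, and its difference from controls was 0.12 with Neurod1, 0.14 with Ascl1a, 0.24 with Neurod1 ΔUCE (0.33 without its replicate 1) and 0.23 with Neurod1 ΔECD. Libraries of all 4 groups overlapped the controls, from 6.65 in Neurod1 replicate 3 to 7.47 in Neurod1 ΔUCE replicate 3.

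**Figure D1:**
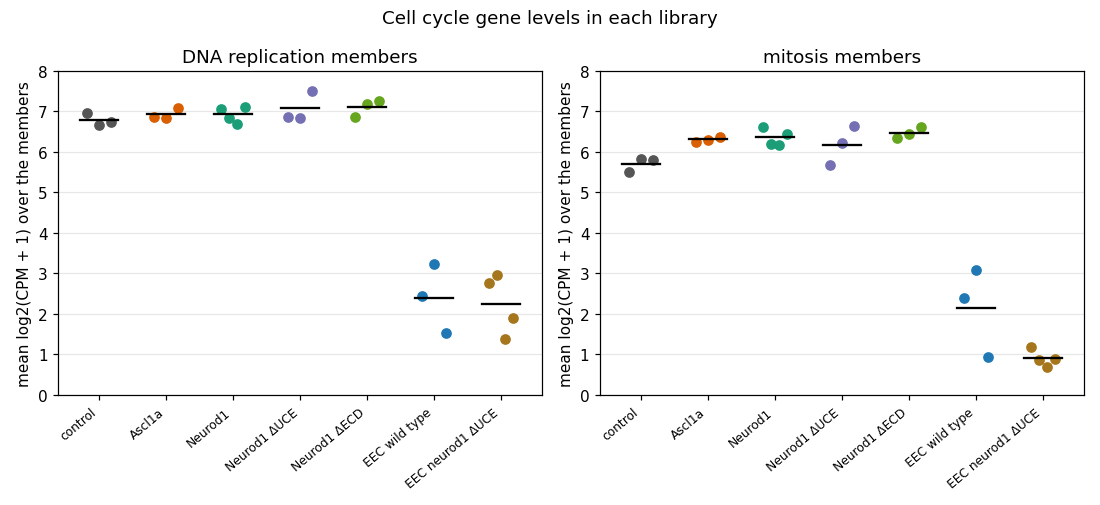
Mean log2(CPM + 1) over the replication members (left) and the mitosis members (right) in each of the 23 libraries, by group, with 1 point per library and a bar at the group mean. Levels are normalised over all 23 libraries. For replication the endodermal libraries lie between 6.66 and 7.50 and the EEC libraries between 1.38 and 3.24, and the mitosis level of the Neurod1, Ascl1a and Neurod1 ΔECD libraries lies above that of all 3 controls.

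Per library, between 10 and 16 of the 17 mitotic genes exceeded every control in the Neurod1 libraries (16, 13, 10 and 16 for replicates 1 to 4). The Ascl1a libraries gave 12, 13 and 13, and the Neurod1 ΔECD libraries 12, 12 and 15. The Neurod1 ΔUCE libraries gave 5, 9 and 16, so its replicate 1 again held the lowest count. Over all 18911 genes tested, 21.2% to 31.5% lay above every control in each of these 13 libraries, and 28.4% did in Neurod1 ΔUCE replicate 1. The 7 identifiers of *mcm2* to *mcm7* did not share this pattern: 0 to 5 of them lay above every control in any transgenic library, and 1 to 7 lay below. Over all genes tested, 18.8% to 35.7% lay below every control in each library. The 35.7% belongs to Neurod1 ΔUCE replicate 2, where all 7 of these identifiers lay below.

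Levels of mesenchyme markers also differed between these libraries, and their part was not tested. All 8 identifiers on that list were detected in every endodermal group. Their sum was 2586, 496 and 1379 CPM in controls 1 to 3, 125 to 672 CPM with Neurod1, 55.5 to 579 CPM with Ascl1a and 173 to 1175 CPM with Neurod1 ΔECD. Controls 1 and 3 and Neurod1 ΔUCE replicate 1 held the 3 highest sums, and their mitosis levels were low, at 5.46, 5.77 and 5.67. The sum of control 2 lay within the range of the transgenic libraries, although its mitosis level was 5.86. Erythroid markers, all 7 detected, summed to 259 to 1397 CPM in controls and to 1077 to 4008 CPM with Ascl1a, 364 to 919 CPM with Neurod1, 104 to 3787 CPM with Neurod1 ΔUCE and 275 to 1548 CPM with Neurod1 ΔECD, and muscle markers, all 12 detected, were highest in control replicate 3 at 19602 CPM and in Neurod1 replicate 2 at 10688 CPM.

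*ccnb3* (ENSDARG00000034855), a B-type cyclin, was the mitotic gene with the smallest p in all 4 comparisons. It stood at 19.9, 24.8 and 20.0 CPM in controls 1 to 3. It stood at 65.7, 41.1, 43.7 and 49.6 CPM with Neurod1, at 55.3, 52.9 and 63.1 CPM with Ascl1a, and at 46.0, 71.3 and 84.0 CPM with Neurod1 ΔECD. All 10 of these libraries were above the 3 controls. With Neurod1 ΔUCE it was 20.8, 56.9 and 49.1 CPM, replicate 1 again lying within the control range. Against a control mean of 21.6 ± 2.79 CPM (SD, n = 3), the log2 fold change was 1.64 with Neurod1 ΔECD (SE 0.35, edgeR FDR 0.290), 1.40 with Ascl1a (SE 0.35, FDR 0.795), 1.21 with Neurod1 (SE 0.33, FDR 0.577) and 0.97 with Neurod1 ΔUCE (SE 0.34, FDR 0.538), or 1.30 (FDR 0.116) without its replicate 1. None of these passed edgeR's threshold, whereas DESeq2 placed *ccnb3* past it with Neurod1 ΔECD (FDR 0.00912), Ascl1a (FDR 0.0712) and Neurod1 (FDR 0.0999). Over the alternatives tried, the FDR ran from 0.00912 to 0.868 with Neurod1 ΔECD and reached 0.991 with Ascl1a and 1.000 with Neurod1.

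*ccnb1* (ENSDARG00000051923), the B cyclin that partners CDK1, was at 63.4, 111 and 93.1 CPM in controls and at 178, 203 and 219 CPM with Ascl1a, with no overlap. Its log2 fold change with Ascl1a was 1.17 (SE 0.35, edgeR FDR 0.795). It was 143 to 165 CPM in the 4 Neurod1 libraries and 172 to 219 CPM in the 3 Neurod1 ΔECD libraries, all above the controls. In the Neurod1 ΔUCE libraries it was 64.7, 216 and 157 CPM, so that replicate 1 lay among the controls. Without that replicate the log2 fold change was 1.06 (SE 0.27, edgeR FDR 0.146), again not called.

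*cdc20* (ENSDARG00000100741), the activator of the anaphase-promoting complex, was at 31.0, 49.4 and 57.8 CPM in controls and at 106, 104 and 107 CPM with Neurod1 ΔECD. The log2 fold change was 1.20 (SE 0.36, edgeR FDR 0.750, 0.126 to 0.992 over the alternatives). The 4 Neurod1 libraries, at 66.4, 65.5, 90.8 and 109 CPM, also lay above the controls, while Ascl1a (53.7, 87.0 and 101 CPM) and Neurod1 ΔUCE (46.1, 84.0 and 116 CPM) overlapped them.

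*cdk1*, the kinase that starts mitosis, was at 129, 165 and 135 CPM in controls and between 178 and 303 CPM in the Neurod1, Ascl1a and Neurod1 ΔECD libraries, without overlap. With Neurod1 ΔUCE it was 112, 242 and 343 CPM, and the log2 fold change without replicate 1 was 1.03 (edgeR FDR 0.173). *plk1*, the Polo kinase, was at 103, 114 and 75.2 CPM in controls, at 194, 148 and 188 CPM with Ascl1a and at 172, 133 and 293 CPM with Neurod1 ΔECD, and overlapped controls in the Neurod1 libraries (113 to 185 CPM) and Neurod1 ΔUCE libraries (99.4 to 220 CPM). *aurka*, the Aurora kinase of the spindle poles, was at 28.6 to 47.3 CPM in controls and at 52.9 to 79.8 CPM with Neurod1, 52.1 to 68.8 CPM with Ascl1a, 47.6 to 82.5 CPM with Neurod1 ΔUCE and 49.3 to 75.2 CPM with Neurod1 ΔECD, above the controls in all 13 transgenic libraries.

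Other mitotic genes overlapped the controls in most groups. *mki67*, which codes for the Ki-67 protein of dividing nuclei, was at 372, 725 and 471 CPM in controls and at 340 to 864 CPM in the transgenic libraries. *aurkb*, the Aurora kinase of the chromosomal passenger complex, was at 92.6 to 188 CPM in controls and 102 to 195 CPM in the transgenic libraries, and *bub1*, a spindle checkpoint kinase, at 17.1 to 29.6 and 8.84 to 55.3 CPM. *top2a*, which untangles DNA, was at 81.3 to 117 CPM in controls and at 79.7 to 217 CPM in the transgenic libraries. None of these 4 genes was free of overlap with the controls in any of the 4 groups.

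The remaining mitotic genes lay between these cases. *ccna2*, the A cyclin, was at 106 to 146 CPM in controls and 107 to 314 CPM in the transgenic libraries, *ccnb2*, another B cyclin, at 14.0 to 25.9 and 12.8 to 49.8 CPM, and *ttk*, a spindle checkpoint kinase, at 42.8 to 54.3 and 38.8 to 86.1 CPM. The kinesin genes *kif11*, for spindle pole separation, and *kif23*, for the end of cell division, were at 69.9 to 92.6 and 43.3 to 62.0 CPM in controls and at 62.3 to 206 and 43.7 to 94.7 CPM in the transgenic libraries. Each was above every control in all libraries of at least 1 group and overlapped the controls in at least 1 other.

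*birc5a* and *birc5b* encode survivin-type proteins of the same passenger complex. *birc5a* was at 12.3, 26.5 and 32.9 CPM in controls and was highest in Neurod1 ΔUCE replicate 2 (118 CPM) and Neurod1 ΔECD replicate 2 (169 CPM), against 16.9 to 41.6 CPM in the other libraries of these 2 groups. Those same libraries also held the highest *ccne1* levels, 107 and 132 CPM, against 24.9 to 74.3 CPM in the 14 other endodermal libraries. *birc5b* was at 0, 0 and 0.118 CPM in controls, at 0.167 to 1.92 CPM with Neurod1, 0.468 to 0.616 CPM with Ascl1a, 0.0761 to 0.622 CPM with Neurod1 ΔUCE and 0.204 to 0.381 CPM with Neurod1 ΔECD. The control levels lie below that of 3 counts, so no fold is given, while the highest Neurod1 levels lie above it. DESeq2 called *birc5b* with Neurod1 (FDR 0.0916) where edgeR did not (FDR 0.579).

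**Figure D2:**
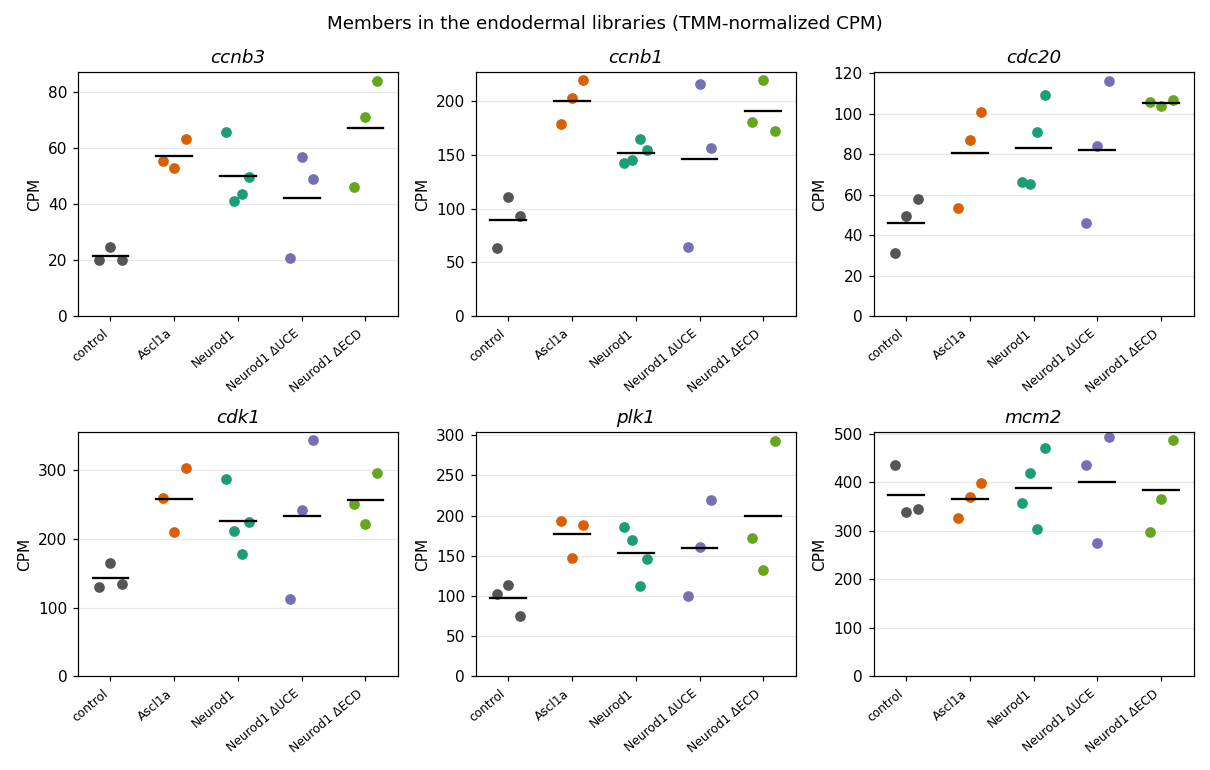
TMM-normalised CPM of 6 members, chosen after their values were seen, in the 16 endodermal libraries, with 1 point per library and a bar at the group mean. *ccnb3*, *ccnb1* and *cdk1* lie above all 3 controls in every Neurod1, Ascl1a and Neurod1 ΔECD library, Neurod1 ΔUCE replicate 1 lies with the controls, and *mcm2* overlaps the controls in every group.

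Among the replication genes, *rrm2* stood out through its identifier ENSDARG00000020711, the small subunit of ribonucleotide reductase. It was at 58.4, 48.4 and 54.2 CPM in controls, at 59.199, 279 and 197 CPM with Neurod1 ΔUCE and at 78.7, 167 and 265 CPM with Neurod1 ΔECD. All 6 of these libraries were above the controls, Neurod1 ΔUCE replicate 1 by less than 1 CPM. The log2 fold change was 1.73 with Neurod1 ΔUCE (SE 0.51, edgeR FDR 0.414) and 1.66 with Neurod1 ΔECD (SE 0.51, FDR 0.750). Without Neurod1 ΔUCE replicate 1 the value was 2.15 and passed (FDR 0.0873), and DESeq2 also called it with that replicate included (FDR 0.0999). The libraries with full-length Neurod1 (171, 74.4, 78.6 and 70.6 CPM) and Ascl1a (68.3, 79.2 and 77.5 CPM) also lay above the controls. Reads of this gene could be split between its 2 identifiers. The other, ENSDARG00000078069, was at 63.7 to 99.7 CPM in controls and overlapped them in all groups but Neurod1 ΔECD (109, 139 and 178 CPM). With Neurod1 ΔUCE it was at 47.3, 201 and 274 CPM, overlapping the controls only through replicate 1. Without that replicate its log2 fold change was 1.57 (edgeR FDR 0.117), not called.

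*cdc6* (ENSDARG00000009942), which loads the helicase, was at 23.0, 31.9 and 18.5 CPM in controls and at 35.8, 54.1 and 59.6 CPM with Neurod1 ΔUCE, without overlap. Its log2 fold change there was 1.03 (SE 0.37, edgeR FDR 0.568), or 1.22 (FDR 0.243) without Neurod1 ΔUCE replicate 1. It was also above controls in the 3 Ascl1a libraries (34.7, 48.4 and 32.5 CPM) and overlapped them with Neurod1 (23.1 to 51.0 CPM) and Neurod1 ΔECD (27.4 to 64.7 CPM).

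The helicase genes themselves overlapped the controls in nearly all groups. *mcm2* was at 435, 339 and 345 CPM in controls and 275 to 492 CPM in the transgenic libraries, *mcm3* at 264 to 410 and 206 to 535 CPM, *mcm4* at 356 to 464 and 252 to 616 CPM, and *mcm5* at 209.6 to 276 and 127 to 360 CPM. *mcm6* was at 270.4 to 293 and 226 to 405 CPM under ENSDARG00000057683, its other identifier lying at or below 3.63 CPM in every endodermal library. The exceptions lay in the Neurod1 ΔECD group, where that scarce identifier (at most 0.763 CPM against 1.53 to 3.63 CPM in controls) and *mcm7* were lower without overlap. *mcm7* was at 128, 82.7 and 124 CPM in controls against 44.1, 47.8 and 67.3 CPM with Neurod1 ΔECD, a log2 fold change of -1.07 that did not pass (edgeR FDR 0.750 or above for every replication gene in that comparison). *pcna* ranged from 351 to 950 CPM in controls and from 547 to 1553 CPM in the transgenic libraries, and *rrm1*, the large reductase subunit, from 338 to 426 and 315 to 692 CPM.

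The remaining replication genes overlapped as well, with 1 exception. *mcm10* was at 13.7 to 17.5 CPM in controls and 10.2 to 30.4 CPM elsewhere, and *tyms* at 26.4 to 52.4 and 24.9 to 119 CPM. *cdc45* was at 38.5, 30.9 and 34.6 CPM in controls and at 58.0, 63.3 and 54.3 CPM with Neurod1 ΔECD, without overlap, and overlapped the controls in the other 3 groups.

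The genes of S-phase entry gave no common direction. *ccnd1*, the D cyclin, was at 135, 213 and 166 CPM in controls and at 132 to 365 CPM in the transgenic libraries. *ccnd2a* (ENSDARG00000051748) was at 29.5, 29.7 and 31.2 CPM in controls and at 19.8, 17.1 and 18 CPM with Neurod1 ΔECD, without overlap, while its second identifier did not exceed 5.38 CPM in any endodermal library. *cdk2* was at 58.5 to 81.6 CPM in controls and at 111 to 148 CPM with Neurod1 ΔECD, again without overlap. *ccne1* and *ccne2*, the E cyclins, overlapped the controls in all 4 groups. Over the 6 identifiers the median log2 fold change was 0.01 with Neurod1, 0.12 with Ascl1a, 0.26 with Neurod1 ΔUCE and 0.49 with Neurod1 ΔECD.

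Of the CDK inhibitors, *cdkn1ca* (ENSDARG00000010878), a p57-type gene, was at 11.7, 20.6 and 22.3 CPM in controls and at 28.05, 25.9, 33.8 and 52.5 CPM with Neurod1. It was at 31.2, 29.9 and 44.8 CPM with Neurod1 ΔUCE and at 26.5, 34.5 and 33.1 CPM with Neurod1 ΔECD, so that all 10 libraries with a form of Neurod1 lay above the controls, while Ascl1a (11.2, 17.6 and 23.8 CPM) overlapped them. The log2 fold change with Neurod1 was 0.95 (SE 0.34, edgeR FDR 0.966). *cdkn1a*, the p21 gene, was at 41.3, 28.9 and 25.0 CPM in controls and at 19.9 to 27.6 CPM with Neurod1, 10.6 to 59.7 CPM with Ascl1a, 8.37 to 31.5 CPM with Neurod1 ΔUCE and 19.1 to 42.0 CPM with Neurod1 ΔECD, overlapping the controls throughout.

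Counted against all genes, 0 of the 40 identifiers were called by edgeR with Neurod1 (0.0423% of all genes called), Ascl1a (0.0159%), Neurod1 ΔUCE (0.0582%) or Neurod1 ΔECD (0.0423%). So few genes passed anywhere that a count of 0 says little about the members. At an unadjusted p under 0.05, 7 members were higher and 0 lower with Neurod1 (2.31% and 1.94% of all genes), 6 and 0 with Ascl1a (2.46% and 3.65%), 6 and 0 with Neurod1 ΔUCE (3.72% and 3.39%), and 12 and 2 with Neurod1 ΔECD (3.47% and 2.66%). The 2 lower members were *mcm7* and the scarce *mcm6* identifier ENSDARG00000033231. DESeq2 called 2 members with Neurod1 (*ccnb3*, *birc5b*), 1 with Ascl1a (*ccnb3*), 1 with Neurod1 ΔUCE (*rrm2* ENSDARG00000020711) and 1 with Neurod1 ΔECD (*ccnb3*), against 0.557%, 0.453%, 1.18% and 0.396% of all genes, and limma-voom called 0 in each.

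Members without overlap between the groups were higher in every case with Neurod1 (11 of 40, with 4.03% of all genes higher and 4.1% lower), with Ascl1a (11 of 40, 6.48% and 7.42%) and with Neurod1 ΔUCE (5 of 40, 4.6% and 5.44%). With Neurod1 ΔECD, 15 were higher (8.97% of all genes) and 3 lower (8.47%). Mitotic genes made up 9, 9, 2 and 10 of the higher members in these 4 groups. Without Neurod1 ΔUCE replicate 1, 17 of 40 members were higher without overlap with that factor (13.5% of all genes), 9 of them mitotic, and 2 were lower (14.4%). In that fit 16 members had an unadjusted p under 0.05 and were higher, 1 was lower, and 1 was called. Of all 19514 genes tested in it, 1227 were higher and 1209 lower at that p, and 65 were called. Over all 40 identifiers, 33, 31, 32 and 32 had a positive log2 fold change, against 50.1%, 49%, 51.4% and 48.2% of all genes, with medians of 0.27, 0.31, 0.41 and 0.59.

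**Figure D3:**
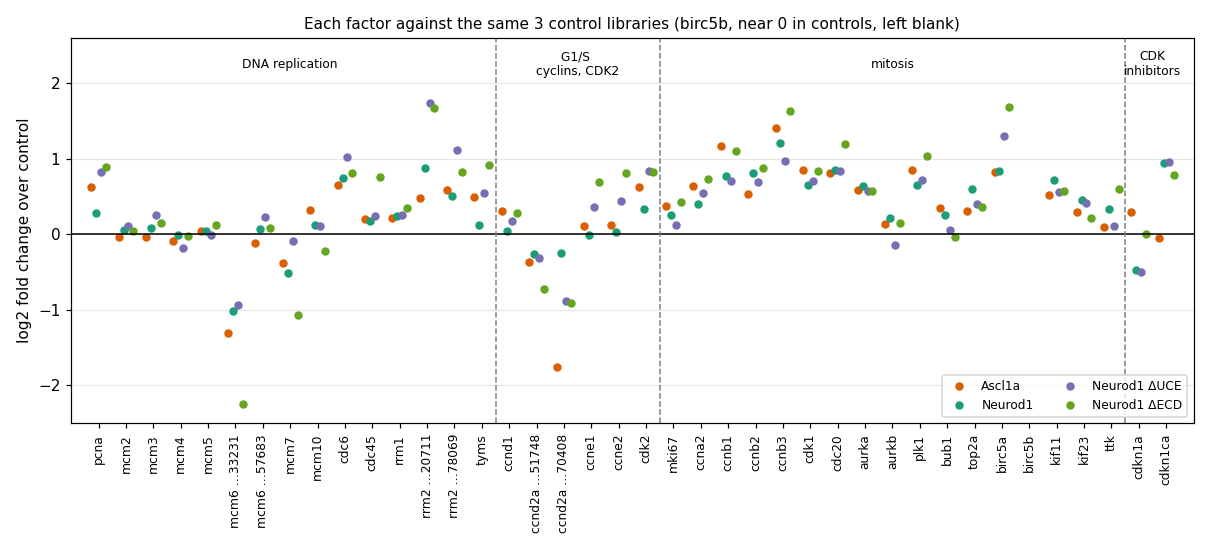
Log2 fold change over control of each member identifier, ordered by role, for the 4 factors, with *birc5b* left blank. The mitosis genes lie mostly above 0 for all 4 factors, and none of the values passed the FDR threshold. Of the 15 replication identifiers, 12 lie above 0 with Neurod1, 9 with Ascl1a, 11 with Neurod1 ΔUCE and 11 with Neurod1 ΔECD.

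Lists of other genes of the same processes, against the same shared controls, also had mostly positive fold changes. Of 53 other mitotic identifiers tested, 50 had a positive log2 fold change with Neurod1, 44 with Ascl1a, 47 with Neurod1 ΔUCE and 50 with Neurod1 ΔECD, with medians of 0.49, 0.45, 0.51 and 0.68. Of 51 other replication and S-phase identifiers, 36, 47, 44 and 47 were positive, with medians of 0.13, 0.38, 0.39 and 0.51. Without overlap, 2, 10, 5 and 23 of these 51 were higher and 0, 1, 2 and 0 lower. Of the 53 mitotic ones, 15, 20, 6 and 32 were higher and 0, 2, 1 and 1 lower. The shares over all genes were 4.03%, 6.48%, 4.6% and 8.97% higher and 4.1%, 7.42%, 5.44% and 8.47% lower. The 16 identifiers of other G1 cyclins, CDKs and E2F factors had medians of 0.46, 0.21, 0.45 and 0.35. The 22 tested identifiers of other brakes on the cycle (CDK inhibitors, retinoblastoma and BTG/TOB genes and the like) had medians of 0.26, -0.02, 0.08 and 0.03. None of these genes was called by edgeR.

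The factors were also compared with each other. Between Neurod1 and Ascl1a the mitosis level differed by 0.03 and the replication level by -0.02, and 0 of 40 members were called by edgeR (0.037% of all genes). The log2 fold change was above 0 for 22 of 40 (52.1% of all genes), with a median of 0.02. 1 member had an unadjusted p under 0.05, the higher *cdkn1ca* (3.23% of all genes higher, 2.14% lower), and DESeq2 (0.786% of all genes) and limma-voom called 0. *cdkn1ca* lay above every Ascl1a library in all 4 Neurod1 libraries, with a log2 fold change of 1.00 (SE 0.34, edgeR FDR 0.767), and was 1 of 40 higher without overlap (4.74% of all genes), while *ccnb1* and *tyms* were lower without overlap (4.15%). The next smallest p-values belonged to *cdkn1a*, with 19.9 to 27.6 CPM against 10.6 to 59.7 CPM and a log2 fold change of -0.76 (SE 0.50, FDR 0.979), which turned to 0.02 under limma-voom, and to the second *ccnd2a* identifier ENSDARG00000070408, at most 4.92 CPM in either group (1.51, SE 1.05, FDR 0.982). Of the 51 other replication and S-phase identifiers, 9 were above 0 in this comparison, with a median of -0.22. Without overlap, 5 were lower (4.15% of all genes) and 0 higher (4.74%). Of the 53 other mitotic identifiers, 28 were above 0, with a median of 0.05. None of either list was called by edgeR.

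Deleting the UCE from the induced Neurod1 left the members without a called difference from full-length Neurod1. 0 of 40 were called by edgeR (0% of all genes), 0 had an unadjusted p under 0.05 (1.32% of all genes higher, 1.3% lower) and 0 were called by DESeq2 (0.0744%) or limma-voom. The median log2 fold change was 0.01, with 21 of 40 above 0 (52.3% of all genes), and the mitosis level differed by -0.19, with libraries of 5.67, 6.10 and 6.60 against 6.13 to 6.55. Without Neurod1 ΔUCE replicate 1 the sign turned, the difference being 0.03. No member was free of overlap in either direction (1.28% of all genes higher and 2.14% lower). Without that replicate 6 were higher (8.13%) and 1 lower (8.59%), none of them mitotic. In that fit 4 members had an unadjusted p under 0.05, all higher, and 0 were called by edgeR. Of all 19514 genes tested in it, 594 were higher and 675 lower at that p, and 5 were called. With that replicate included, the smallest p-values belonged to *birc5b*, at 0.0761 to 0.622 against 0.167 to 1.92 CPM, and to both *rrm2* identifiers. These were ENSDARG00000020711 (0.85, SE 0.46, edgeR FDR 1.000) and ENSDARG00000078069 (0.62, SE 0.44, FDR 1.000). With all 3 Neurod1 ΔUCE libraries, 43 of the 51 other replication and S-phase identifiers were above 0, with a median of 0.20. Of the 53 other mitotic identifiers, 31 were, with a median of 0.06. None of either list was called by edgeR.

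Nor did any member differ between Neurod1 without the whole ECD and full-length Neurod1 at the threshold. Again 0 of 40 were called by edgeR (0% of all genes), 0 had an unadjusted p under 0.05 (2.4% higher, 1.94% lower) and 0 were called by DESeq2 (0.082%) or limma-voom. The median log2 fold change was 0.09, with 25 of 40 above 0 (46.4% of all genes), and the mitosis level differed by 0.06. *cdc45* (58.0, 63.3 and 54.3 against 28.3 to 51.4 CPM) and *ccnb1* (172 to 219 against 143 to 165 CPM) were higher without overlap, 2 of 40 against 4.47% of all genes, and 0 were lower (3.71%). Of the members with the smallest p, *tyms* had a log2 fold change of 0.79 (SE 0.39, edgeR FDR 0.910), with 56.2, 119 and 43.2 CPM against 34.1 to 48.3 CPM, which overlap, followed by *ccne2* (0.78, SE 0.44, FDR 0.910) with 30.1, 87.9 and 41.1 CPM against 23.6 to 45.6 CPM. *birc5b* was at 0.204 to 0.381 against 0.167 to 1.92 CPM. The other replication and S-phase identifiers were mostly higher with Neurod1 ΔECD, 48 of 51 being above 0 with a median of 0.33. Of these 51, 11 were higher without overlap (4.47% of all genes) and 0 lower (3.71%). Of the 53 other mitotic identifiers, 42 were above 0, with a median of 0.21. None of either list was called by edgeR.

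In EECs at 4 dpf the division genes were far below the level of the endodermal control cells at 52 hpf. Of the 40 identifiers, 33 fell and 1 rose in wild-type EECs against the controls, in a fit over all 23 libraries and 20397 genes, where 22% of all genes fell and 16.1% rose. The median log2 fold change was -3.93 over the members, 2 of 40 of which were above 0 (46% of all genes), and -0.19 over all genes. The called falls ran from -1.87 for *ccnd1* to -5.90. It was -5.05 over the replication identifiers, 14 of 15 of which fell, -3.66 over the mitotic genes, 15 of 17 of which fell, and -2.13 over the identifiers of S-phase entry, 4 of 6 of which fell. The cells differ at the same time in stage, tissue, dissociation enzyme, heat shock, reporter and number of cells sorted. These cannot be told apart from the cell type.

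The helicase and its loaders were among the genes with the lowest levels relative to controls. *mcm2* (ENSDARG00000102798) was at 5.48, 17.4 and 3.23 CPM in wild-type EECs and at 451, 329 and 354 CPM in controls. The mean of 8.72 ± 7.64 CPM (SD, n = 3) was 43.3-fold lower than the control mean of 378 CPM (log2 fold change -5.44, SE 0.67, edgeR FDR 6.65e-06). *mcm7* (ENSDARG00000101180) was at 2.52, 2.39 and 4.75 CPM against 132, 80.1 and 127 CPM, a mean of 3.22 ± 1.32 CPM and a log2 fold change of -5.13 (SE 0.56, FDR 1.72e-06). Every EEC library was below every control for both genes.

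*mcm4* (ENSDARG00000040041) was at 9.16, 21.0 and 6.27 CPM against 358 to 476 CPM (-5.05, SE 0.92, FDR 0.000386), and *cdc6* at 1.51, 2.14 and 0 CPM against 19.0 to 30.9 CPM (-4.31, SE 0.73, FDR 0.000206). Nucleotide supply followed. *rrm1* (ENSDARG00000014017) was at 21.7, 35.8 and 14.7 CPM against 441, 327 and 377 CPM, 15.9-fold lower (-3.99, SE 0.58, FDR 4.73e-05). *rrm2* ENSDARG00000078069 was at 0.937, 4.70 and 0 CPM against 65.4 to 103 CPM (-5.42, SE 0.91, FDR 0.000171). *tyms* was the only replication identifier not to pass, at 19.9, 7.61 and 9.31 CPM against 27.3 to 50.7 CPM (-1.65, FDR 0.127), although its groups did not overlap.

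*pcna* (ENSDARG00000054155), the polymerase clamp, kept a measurable level in EECs. It was at 51.7, 80.0 and 23.0 CPM, a mean of 51.5 ± 28.5 CPM (SD, n = 3), against 983, 525 and 360.02 CPM in controls. This was 12.1-fold lower (log2 fold change -3.59, SE 0.55, edgeR FDR 6.79e-05). Every EEC library was again below every control.

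Of the mitotic genes, *ccna2* (ENSDARG00000011094), which acts in S phase and at mitotic entry, was at 5.62, 5.30 and 0 CPM against 151, 129 and 109 CPM (-5.14, SE 0.93, FDR 0.000364). *aurka* (ENSDARG00000012485) was at 1.08, 4.96 and 0.665 CPM against 29.5 to 45.8 CPM (-4.17, SE 0.77, FDR 0.000444). *kif11* (ENSDARG00000010948) was at 3.68, 10.4 and 0.095 CPM against 67.7 to 95.9 CPM (-4.16, SE 0.78, FDR 0.000528). These 10 genes were the called members with the smallest p, and each kept an FDR of at most 0.0325 under every alternative.

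*mki67* was even across the wild-type EEC libraries, at 66.1, 65.3 and 60.96 CPM, against 385, 702 and 483 CPM in controls. It fell by 3.03 on the log2 scale (edgeR FDR 0.0134). *ccnb1* was also even, at 9.08, 8.21 and 8.07 CPM against 65.6, 107 and 95.6 CPM (FDR 0.000727). Other mitotic genes varied much more between the EEC libraries: *top2a* was at 7.64, 17.3 and 0 CPM and *cdk1* at 10.6, 23.4 and 0 CPM. Wild-type EEC replicate 3 was lowest and replicate 2 highest in both.

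2 called falls rested on the choice of libraries and are named after their values were seen. *ccnb3* was at 0, 6.07 and 0 CPM against 20.6, 24.01 and 20.6 CPM (-3.42, SE 1.21, FDR 0.0380). It no longer passed with only the 2 groups in the fit (FDR 0.185), without wild-type EEC replicate 1 (FDR 0.101) or without replicate 3 (FDR 0.103). *birc5a* was at 3.96, 5.05 and 0 CPM against 12.7 to 33.8 CPM (-2.99, FDR 0.0367) and no longer passed with only the 2 groups in the fit (FDR 0.121).

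The identifiers that did not pass were *tyms*, both of *ccnd2a*, *ccnb2*, *birc5b* and *cdkn1a*. *ccnd2a* was at 7.93, 17.8 and 3.42 CPM against 28.8 to 32.0 CPM under ENSDARG00000051748 (FDR 0.151). *ccnb2* was at 7.50, 5.82 and 4.94 CPM against 14.5 to 26.5 CPM (-1.79, FDR 0.160), and *cdkn1a* at 1.23, 20.5 and 0 CPM against 25.6 to 42.8 CPM (-2.15, FDR 0.117). *ccnd1*, which did pass, kept 46.5, 60.5 and 34.6 CPM against 140.0, 206 and 170.1 CPM (-1.87, FDR 0.00723).

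*cdkn1ca* was the 1 member that rose, and it is also named after its values were seen. It was at 32.9, 52.0 and 37.8 CPM in wild-type EECs against 12.1, 19.9 and 22.9 CPM in controls, a mean of 40.9 ± 9.90 CPM (SD, n = 3) and 2.24-fold higher (log2 fold change 1.16, SE 0.41, edgeR FDR 0.0385). The call was lost without wild-type EEC replicate 2 (0.95, FDR 0.118) and without control replicate 1 (0.87, FDR 0.193). The mutant EEC libraries, at 35.03, 21.3, 49.9 and 22.5 CPM, overlapped the highest control.

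**Figure D4:**
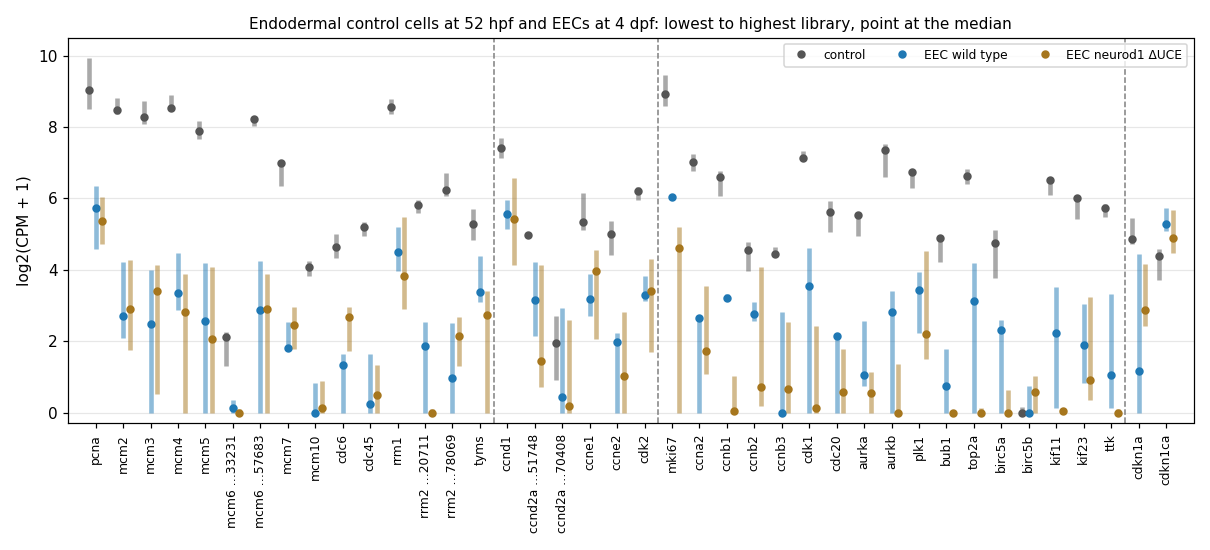
Lowest to highest log2(CPM + 1) of each member identifier, ordered by role, in the 3 endodermal controls and in the wild-type and *neurod1* ΔUCE EEC libraries, with the median as a point. The EEC ranges lie below the control ranges for most replication and mitosis genes, and *cdkn1ca* lies higher in wild-type EECs than in controls.

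Without overlap between the groups, 37 of 40 identifiers were lower in wild-type EECs (28% of all genes) and 1 was higher (20.7%). Set against all 16 endodermal libraries, 33 of the 40 were lower in all 7 EEC libraries, against 10.3% of all genes, and 0 were higher (8.32%). The 7 exceptions were *mcm6* ENSDARG00000033231, both of *ccnd2a*, *ccnb2*, *birc5b*, *cdkn1a* and *cdkn1ca*. The number at or under 3 counts was 6, 1 and 22 of 40 in the wild-type EEC libraries and 12, 12, 20 and 14 in the mutant ones. It was 0 to 2 in the endodermal libraries, so many EEC values are at the limit of detection. Fewer cells were also sorted per EEC library, 1000 to 2000 against 2000 to 4000 endodermal cells. The part of total counts or cell number in these values was not tested. Ascl1a replicate 1 had 8364374 counts and 1 such identifier, wild-type EEC replicate 3 had 8626863 counts and 22. That EEC library had a count for 16352 features, the fewest of all libraries, against 20100 and 21085 in wild-type EEC replicates 1 and 2.

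Wild-type EEC replicate 2 had the highest mean level, 3.24 for replication and 3.08 for mitosis against 2.44 and 2.39 in replicate 1 and 1.52 and 0.93 in replicate 3 (controls 6.66 to 6.96 and 5.50 to 5.82). That library also held 1107 CPM of liver markers, all 8 detected in the group, against 5.79 and 13.2 CPM in the others. It held 937 CPM of goblet markers against 21.3 and 225 CPM, and 2995 CPM of enterocyte markers against 1370 and 1585 CPM. The mutant EEC libraries held 38.6 to 216 CPM of goblet and 1629 to 4470 CPM of enterocyte markers. The part of these markers was not tested. With any 1 library left out in turn, 33 to 35 members in all were called. Erythroid markers summed to at most 5.99 CPM in any EEC library (*hbae3* and *hbbe3* at 0 in the wild type), leukocyte markers to at most 8.23 CPM and endothelial markers to at most 15.4 CPM. Other foreign markers were not low throughout. Exocrine pancreas markers, all 8 detected, summed to 2.37, 505 and 528 CPM in wild-type EECs, in rising order, and to 6.82 to 409 CPM in mutant ones. They reached at most 22.3 CPM in controls. Mesenchyme markers summed to 27.4 to 410 CPM in wild-type and 6.26 to 856 CPM in mutant EECs. The part of these 2 marker sets was not tested either.

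Other genes of the machinery gave the same direction. Of 51 other replication and S-phase identifiers, 49 fell (22% of all genes fell), with a median of -4.13. Among them were *uhrf1*, which brings the DNA methyltransferase Dnmt1 to replicated DNA, at a mean of 6.98 against 219 CPM (-4.97), *dnmt1* itself at 14.9 against 156 CPM (-3.39) and *rpa1*, the single-strand binding protein, at 20.0 against 258 CPM (-3.69). Of 53 other mitotic identifiers, 52 fell (median -4.35), among them the kinetochore genes *cenpe* (2.76 against 40.5 CPM, -3.87) and *cenpf* (1.02 against 58.9 CPM, -5.84). Of 16 identifiers of G1 cyclins, CDKs and E2F factors, 11 fell, such as *e2f8* (-5.34) and *mycn* (-4.27), and 1 rose (16.1% of all genes), *mycb*, from 33.9 to 127 CPM (1.90).

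Other brakes on the cycle were called in both directions. Of 23 identifiers, 6 rose and 7 fell (16.1% and 22% of all genes), with a median of 0.39. *tob1a*, an antiproliferative gene, rose from 120.1 to 780.4 CPM (2.70, edgeR FDR 5.50e-05). *ccng1* (-2.97), *rbl1* (-3.29) and *rb1* (-2.18) fell.

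In *neurod1* ΔUCE mutant EECs, no cell cycle gene differed from wild type at the threshold. Of the 40 identifiers, 29 had enough counts to be tested and the other 11 did not (*mcm6* ENSDARG00000033231, *mcm10*, *cdc45*, *rrm2* ENSDARG00000020711, *ccnd2a* ENSDARG00000070408, *bub1*, *top2a*, *birc5a*, *birc5b*, *kif11* and *ttk*). 0 of the 29 were called by edgeR, against 0.0186% of the 16154 genes tested. 1 had an unadjusted p under 0.05 and was lower (1.45% of all genes lower, 2.24% higher), limma-voom called 0, and DESeq2, which tests more of the low genes, called 4 (1% of all genes). The median log2 fold change was -0.32 over the 29 members, 9 of which were above 0 (51.5% of all genes), against 0.02 over all genes, and -1.41 over the 11 mitotic genes tested, 10 of which were below 0.

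*ccnb1* had the smallest p. It was at 9.61, 8.90 and 8.60 CPM in wild-type EECs and at 0.0758, 0, 0 and 1.096 CPM in the mutant ones. The groups did not overlap, but the mutant levels correspond to a handful of counts, and the log2 fold change was -4.92 (SE 1.67, edgeR FDR 1.000, DESeq2 FDR 0.0619). *cdk1* was at 11.2, 25.4 and 0 CPM against 4.70, 0.203, 0 and 0 CPM (-3.29, SE 2.03, FDR 1.000), and *aurkb* at 6.33, 10.4 and 0 CPM against 0, 0, 1.66 and 0 CPM (-3.69, SE 2.195, FDR 1.000). Both overlap because wild-type replicate 3 was at 0.

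*mki67* was at 70.0, 70.8 and 65.0 CPM in wild-type EECs and at 24.2, 26.9, 0 and 38.3 CPM in mutant ones, also without overlap. With *ccnb1* it made 2 of the 29 lower (3.42% of all genes), and *cdc6*, at 1.602, 2.32 and 0 CPM against 7.36, 2.54, 5.29 and 6.28 CPM, was the 1 higher (3.21%). The other genes that DESeq2 called were at or near 0 in 1 of the 3 wild-type libraries. *top2a* was at 8.09, 18.7 and 0 CPM against 0, 0, 0 and 0.0997 CPM (DESeq2 FDR 0.0164), *kif11* at 3.89, 11.3 and 0.101 CPM against at most 0.0997 CPM (FDR 0.0349) and *ttk* at 1.14, 9.82 and 0.101 CPM against at most 0.0755 CPM (FDR 0.0845). In all 3 the signal came from wild-type replicates 1 and 2. Replicate 2 also held 1107 CPM of liver and 937 CPM of goblet markers, against at most 13.5 and 216 CPM in mutant libraries. Its 2995 CPM of enterocyte markers lay within the mutant range of 1629 to 4470 CPM. The part of these markers was not tested.

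Not all mitotic genes followed. *plk1* was at 10.4, 15.7 and 3.95 CPM in wild type and at 2.199, 5.58, 23.7 and 1.99 CPM in mutants. *pcna* was at 54.7, 86.6 and 24.5 against 27.5, 70.5, 57.5 and 28.8 CPM, and *cdkn1ca* at 34.9, 56.3 and 40.3 against 38.1, 23.1, 53.5 and 24.2 CPM. The groups overlapped for both, although 2 of the 4 mutant libraries lay below every wild-type library for *cdkn1ca*. The mitosis level was 2.45, 3.18 and 0.95 in wild type and 1.23, 0.90, 0.70 and 0.91 in mutants, a difference of -1.26 with an SD of 1.13 in the wild type, and wild-type replicate 3 lay among the mutants. The replication level was 2.49, 3.33 and 1.56 against 2.86, 3.04, 1.42 and 1.96, a difference of -0.14. Over the 35 members other than the CDK inhibitors the difference was -0.70, and leaving out 1 library at a time moved it between -1.20 and -0.28. Of 24 other mitotic identifiers tested, 7 had a positive log2 fold change, with a median of -0.80. Of the 43 other replication identifiers tested the median was 0.25, and 0 genes of any of these lists were called.

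**Figure D5:**
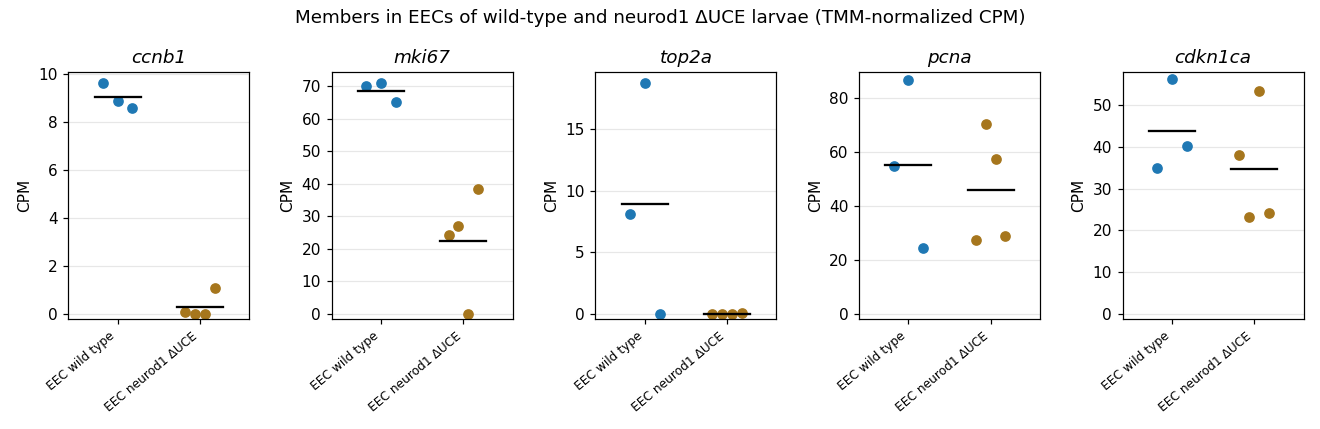
TMM-normalised CPM of 5 members, chosen after their values were seen, in the 3 wild-type and 4 *neurod1* ΔUCE EEC libraries, with 1 point per library and a bar at the group mean. *ccnb1* and *mki67* separate the groups, *top2a* does so only in wild-type replicates 1 and 2, and *pcna* and *cdkn1ca* overlap.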

How the data were processed

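RNA-seq counts were analysed for 16 libraries of endodermal cells and 7 of EECs. According to the methods, 2000 to 4000 endodermal cells or 1000 to 2000 EECs were sorted per library, cDNA was made with Smart-seq2, and libraries were sequenced as single reads of 75 bases. The authors deposited raw read counts per gene, made with STAR 2.5.4b against GRCz11 and the Ensembl 92 annotation per the labels. The strand setting is not given in the sources used here, and the kit does not mark strand, so antisense partners and near-identical copies are uncertain. A feature for the *neurod1* reading frame was added by the authors to the endodermal tables. Of the identifiers, 29178 were paired with a symbol.

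The members and gene lists were chosen with earlier results of these data known. Counts were filtered with filterByExpr, normalised with TMM and tested with the quasi-likelihood test of edgeR 4.0.16 (R 4.3.3), with groups as the only term, in 1 fit for the 16 endodermal libraries, 1 for the 7 EEC libraries and 1 for all 23. Calls were made at a Benjamini-Hochberg FDR of at most 0.1 over all genes tested. The study used DESeq2, run here (1.42.0) as an alternative, as was limma-voom (3.58.1). Fold changes with errors are given for called members, at most the 10 with the smallest p, and otherwise for the 3 members with the smallest p, and up to 5 called genes of each other list could be named. The mean levels (log2 of CPM with a pseudocount of 1, over 35 members without the CDK inhibitors, or by role) carry no test. At 8364374 to 22301304 counts per library, limits of 3 counts cover counting error only. The fits were tested on simulated data.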

Additional observations from a re-analysis of the deposited data

Results flagged for a closer look

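In all, 86 sets of 4 replicates, most but not all of them single members, were examined for 1 library far from the other 3 on the log2(CPM + 1) scale. Of these sets 10 were found, all of them members, where chance flags about 5% of such sets. Of the 10, 3 lie in the Neurod1 endodermal libraries: *rrm2* ENSDARG00000020711 stood at 7.43 in replicate 1, *ccna2* at 6.82 in replicate 3 and *aurkb* at 7.62 in replicate 4.

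The other 7 lie in the *neurod1* ΔUCE EEC libraries, most of them genes near 0 with counts in 1 library. Replicate 4 stood apart for *mcm10* (0.924) and *ccnb1* (1.07), replicate 2 for *ccnd2a* ENSDARG00000070408 (2.70) and *birc5a* (0.686), replicate 1 for *cdk1* (2.51) and replicate 3 for *aurkb* (1.41). *mki67* was the opposite case, at 0 in replicate 3 against values above 4 in the other mutant libraries.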

How the results depend on the processing

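Of the counts of called members, 134 of 140 values under the alternatives were within 1.5 times the reported count. Beyond that were DESeq2, which called 2 members with Neurod1, 1 with Ascl1a, 1 with Neurod1 ΔUCE, 1 with Neurod1 ΔECD and 4 in mutant EECs, where edgeR called 0, and the fit without Neurod1 ΔUCE replicate 1, with 1 (0 to 1 over the libraries left out of that comparison). In wild-type EECs against controls, 33 to 35 members in all were called whichever library was left out, and over all alternatives 32 to 38 fell and 0 to 1 rose. Levels and counts of members without overlap were also computed without Neurod1 ΔUCE replicate 1, a choice made after seeing the data. Of the differences of the mean level over 35 members, 99 of 104 stayed within the spread between replicates. CPM without TMM gave 0.24 with Ascl1a (0.34 as reported) and 0.33 with Neurod1 ΔECD (0.47). The median over members gave 0.77 with Neurod1 ΔECD, and 0.38 for it against Neurod1 (0.12 as reported), and a pseudocount of 0.1 gave -4.52 in wild-type EECs against controls (-3.70). Leaving out 1 library at a time, the difference from controls ran from 0.30 to 0.41 with Neurod1, 0.30 to 0.38 with Ascl1a, 0.12 to 0.49 with Neurod1 ΔUCE, 0.40 to 0.55 with Neurod1 ΔECD and -4.10 to -3.21 in wild-type EECs. Between groups it ran from -0.04 to 0.06 for Neurod1 against Ascl1a, -0.23 to 0.14 for Neurod1 ΔUCE and 0.05 to 0.20 for Neurod1 ΔECD against Neurod1, and -1.20 to -0.28 in mutant EECs. *cdkn1a* in Neurod1 against Ascl1a turned from -0.76 to 0.0166 under limma-voom. Where no value above shows it, the cause was not tested. Correlations between the deviations of same-numbered replicates from their group means ran from -0.45 to 0.35. For replicate 1 they were positive in all 4 comparisons with the endodermal controls (0.15 to 0.34). Differently numbered libraries were not compared, so whether same-numbered libraries share a batch was not tested. With a replicate block, 0 members were called in 8 comparisons and 34 in wild-type EECs against controls, as without it. Using only members with 1 identifier was an alternative chosen after seeing the data. Low counts limit the EEC values, where up to 22 of 40 identifiers stood at or under 3 counts.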
